A study of Oryza sativa with 4 samples.

Results

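The 10 auxin carrier genes of rice (Oryza sativa, japonica) described here are the efflux carriers PIN1a, PIN1b, PIN1c, PIN1d, PIN2, PIN5a, PIN5b, PIN10a and PIN10b, and the influx carrier AUX1. They were chosen by locus identifier, 10 of the 37830 rice loci and 91960 rows in the count table. RNA sequencing counted transcripts in seedlings aged 7 days, kept on days of 14 h light and nights of 10 h. The 2 groups were bta1-1, a mutant line, and the wild type line SN9816, with 2 biological replicates each. No further treatment of either group is given in the sources used here. Neither the cross history of bta1-1, nor the number of plants in a library, nor the organs taken are given in the sources used here, so effects of the mutation and of other differences between the lines cannot be told apart. The series title asks how BTA1 acts on tiller angle and shoot gravitropism through auxin transport and signalling, and the carriers bear on the transport part of that question. BTA1 is known as LAZY1.

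Auxin moves from cell to cell through carriers. AUX1 brings auxin into cells together with protons, and PIN proteins let it out, often from 1 side of the cell only, which gives the flow its direction. Most PINs have a long central loop and sit mainly in the plasma membrane, whereas PIN5-type proteins have a short loop and are known from Arabidopsis and rice at the endoplasmic reticulum, where they act on auxin inside the cell. LAZY1 promotes shoot gravitropism in rice by way of lateral auxin movement, and loss of it spreads the tillers.

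Libraries bta1-1 1 and 2 held 17332067 and 17365812 counted reads, against 20334851 and 15093108 in wild type libraries 1 and 2. LAZY1 (OS11G0490600) had 70 and 89 reads in bta1-1, against 767 and 461 in wild type (log2 fold change -2.94, adjusted p = 0.000467 by edgeR's quasi-likelihood test with Benjamini-Hochberg adjustment). All 7 loci listed as shoot markers, among them the light-harvesting gene CAB2R and the Rubisco activase gene RCA, were read in each library, with summed FPKM of 41200 and 22300 in bta1-1 and 23500 and 33500 in wild type. FPKM is the authors' count scaled by gene length and library size. Of 7 root marker loci 5 had 10 or more reads in each library. The summed FPKM of the 7 was 463 and 672 in bta1-1 and 780 and 493 in wild type. The nicotianamine synthase genes NAS1 and NAS2 made up most of each sum. The root markers RCc3 and IRT1 had at most 2.42 and 1.64 FPKM, and the silicon efflux gene LSI2 had at most 1 read. No shoot or root marker passed the test. All 5 markers of dividing cells were called higher in bta1-1 (adjusted p under 0.05 by the same test), against 2.75% of all genes tested. This list was chosen with earlier results of these data known. With no filter on low counts its member PCNA was not called (adjusted p = 0.0804 by edgeR). The summed FPKM of the markers was 48.9 and 117 in bta1-1, against 21.7 and 9.72 in wild type. Their part in the results on carriers was not tested. None of 3 shoot meristem loci, OSH1 and OSH15 among them, went above 7 reads in a library. In samples of whole tissue such as these, fewer cells of a type and less RNA per cell cannot be told apart.

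The seedlings expressed 4 of the 10 carriers, AUX1, PIN5a, PIN1a and PIN10a, by the rule of 10 or more reads in each library. Of all 37830 loci, 56.0% passed the same rule. Most of these lay above the PINs, since only 12.2%, 4.6% and 0.982% of them had a lower mean FPKM than PIN5a, PIN1a and PIN10a. AUX1 alone reached 1 FPKM in each library. PIN5b had 3 or more reads in each library. PIN1c, PIN1d, PIN10b and PIN1b had between 0 and 5 reads in any library, and PIN2 had 0 reads in all 4. In no carrier did the test find a difference between bta1-1 and wild type. Of 5 carriers with enough reads to be tested (AUX1, PIN5a, PIN1a, PIN10a and PIN5b), 0 were called, against 5.36% of the 23249 genes tested. At an unadjusted p under 0.05 there was 1, PIN5b, against 18.0% of all genes tested. PIN5b had enough reads to be tested only through its bta1-1 libraries. DESeq2 on the same counts, which called 8.0% of the genes, and limma on log2(FPKM + 1), which called 5.79%, also called 0 carriers. The 5 tested carriers had a median log2 fold change of 0.40, against -0.01 for all genes tested. That PIN5b was tested only through its bta1-1 libraries bears on this median. The spread between the wild type replicates was wide for 3 of the 5 tested carriers, and 4 of the 5 intervals include 0. A missed threshold with 2 libraries per group does not show that the carriers were equal.

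**Figure D1:**
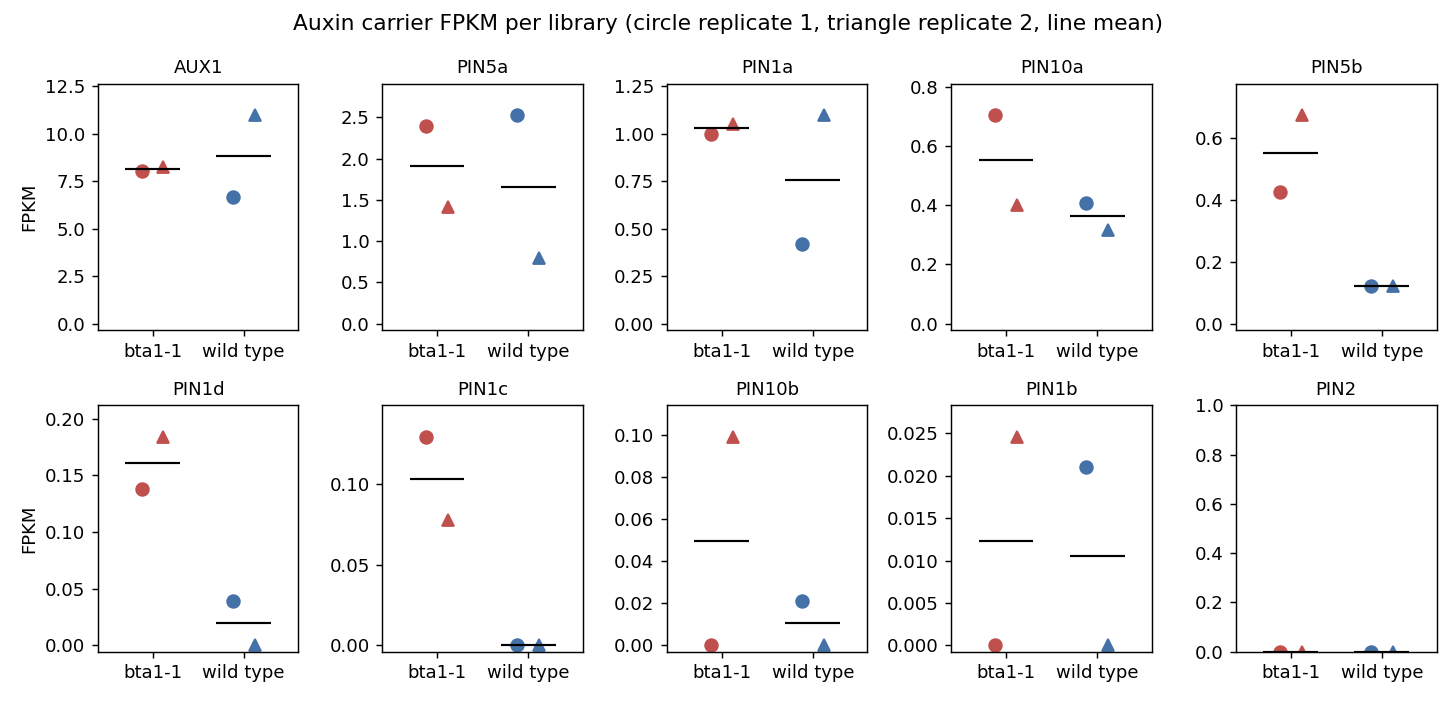
FPKM of the 10 auxin carriers in each library, 1 panel per gene in order of mean level, with its own vertical axis; points are libraries and lines are group means (n = 2). The bta1-1 points lie above both wild type points for PIN5b, PIN1d and PIN1c only, and PIN2 lies at 0.

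AUX1 (OS01G0856500, chromosome 1) was the most abundant carrier by FPKM. It had 259 and 265 reads in bta1-1 libraries 1 and 2, against 252 and 308 in wild type libraries 1 and 2. On the deposited length-scaled scale these were levels of 8.07 and 8.24 FPKM in bta1-1 and 6.69 and 11.0 FPKM in wild type, with means of 8.15 ± 0.121 and 8.86 ± 3.06 FPKM (SD, n = 2 each). Both bta1-1 libraries lay between the wild type libraries, so the groups overlapped completely. The log2 fold change was -0.17 (SE 0.31, 95% interval -0.88 to 0.54, adjusted p = 0.855 by edgeR), and the interval runs from a 0.543-fold to a 1.45-fold level in bta1-1. Without wild type replicate 2 the estimate turned to 0.30, with adjusted p = 0.843. AUX1 took 62.7% and 67.7% of the summed carrier FPKM in bta1-1 and 65.3% and 82.5% in wild type. Its mean over the 4 libraries, 8.50 FPKM, was below the median of 10.9 FPKM of the loci with 10 or more reads in each library, 43.6% of which were lower.

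**Figure D2:**
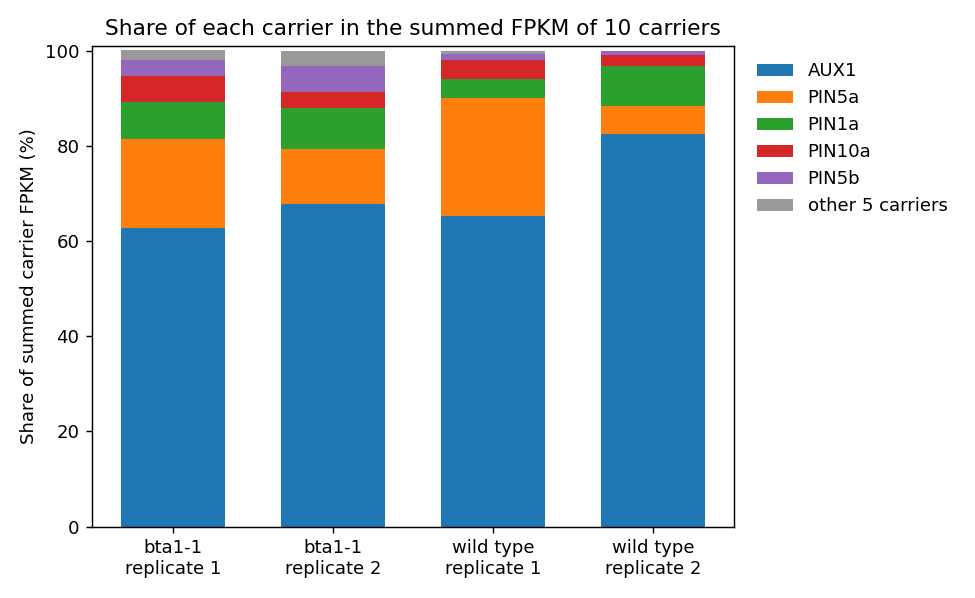
Share of each carrier in the summed FPKM of the 10 carriers, in percent, per library. AUX1 holds the largest share in each of the 4 libraries, from 62.7% to 82.5%, and the PIN5a share varies from 5.95% to 24.7%.

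The 9 PIN genes together summed to 4.81 and 3.93 FPKM in bta1-1, against 3.56 and 2.34 FPKM in wild type, less than AUX1 alone in every library. Both bta1-1 sums lay above both wild type sums. That order was not tested, and 22.5% of single genes with a read had the same order. For PIN5a, PIN1a and PIN10a, the most abundant PIN genes, the groups overlapped. PIN5a, PIN1a, PIN10a and PIN5b made up most of each sum, and the other 5 PIN genes took between 0 and 1.51% of the carrier FPKM each.

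Among the PINs of the plasma membrane, PIN1a (OS06G0232300, chromosome 6) had the most reads. It had 43 and 45 reads in bta1-1, against 21 and 41 in wild type, or 1.00 and 1.05 FPKM in bta1-1 and 0.418 and 1.10 FPKM in wild type. Wild type library 1 was the lone low library, and wild type library 2 was level with bta1-1. The log2 fold change was 0.40 (SE 0.53, 95% interval -0.83 to 1.62, adjusted p = 0.795 by edgeR). Leaving out wild type replicate 1 turned it to -0.20, and leaving out wild type replicate 2 raised it to 1.30 (adjusted p = 0.336). The wild type libraries differed from each other 2.84-fold in CPM (reads scaled to library size, with TMM factors), more than in 94.0% of 2571 genes within 1.5-fold of its wild type level.

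PIN10a (OS01G0643300, chromosome 1), also known as PIN3a, had 28 and 16 reads in bta1-1, against 19 and 11 in wild type. These corresponded to 0.705 and 0.402 FPKM in bta1-1 and 0.407 and 0.318 FPKM in wild type. Library bta1-1 1 stood above the other 3, which were close together. The log2 fold change of 0.57 (SE 0.53, 95% interval -0.64 to 1.79, adjusted p = 0.679 by edgeR) was not called, and without bta1-1 replicate 1 it was 0.026. Its relative PIN10b (OS05G0576900, chromosome 5) had 0 and 4 reads in bta1-1 and 1 and 0 in wild type, too few to be tested.

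PIN1b (OS02G0743400, chromosome 2) had 0 and 1 reads in bta1-1 and 1 and 0 in wild type. These reads were too few to be tested. PIN2 (OS06G0660200, chromosome 6), which in Arabidopsis moves auxin away from the root tip and is needed for root gravitropism, had 0 reads in each library. A count of 0 allows up to 0.173 CPM in either bta1-1 library, against 0.148 and 0.199 CPM in wild type libraries 1 and 2, for counting error only. The 7 root markers of the same libraries ranged widely. LSI2 had 0 and 1 reads in bta1-1 and 1 and 0 in wild type, the iron transporter gene IRT1 had 18 and 40 in bta1-1 and 29 and 12 in wild type, and the nicotianamine synthase gene NAS1, the most read, had 5444 and 8990 in bta1-1 and 11712 and 4302 in wild type.

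PIN1c (OS11G0137000, chromosome 11) and PIN1d (OS12G0133800, chromosome 12) lie in the segments that chromosomes 11 and 12 of rice share as a recent duplication. Reads of such copies can be split between them or dropped by the counting, so the values for each locus are uncertain. PIN1c had 5 and 3 reads in bta1-1 and 0 and 0 in wild type. PIN1d had 3 and 4 reads in bta1-1 and 1 and 0 in wild type. Both bta1-1 libraries lay above both wild type libraries for each locus, as in 22.5% of all genes with a read by FPKM. Summed, the pair had 8 and 7 reads in bta1-1, against 1 and 0 in wild type. This sum was formed after the values were seen, and its order followed from that of each locus. Neither locus passed the filter on low counts. With no such filter, where 7.62% of 30056 genes were called, neither locus was called (adjusted p = 0.182 for PIN1c and 0.491 for PIN1d by edgeR).

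Of the short-loop PINs, PIN5a (OS01G0919800, chromosome 1) was the better read. It had 59 and 35 reads in bta1-1, against 73 and 17 in wild type, or 2.40 and 1.42 FPKM in bta1-1 and 2.53 and 0.795 FPKM in wild type. By FPKM the wild type libraries were the highest and the lowest of the 4, and by CPM bta1-1 library 1 (3.55) and wild type library 1 (3.54) were level at the top, so the groups overlapped on both scales. The log2 fold change was 0.17 (SE 0.57, 95% interval -1.13 to 1.48, adjusted p = 0.927 by edgeR). Its sign depended on single libraries, at -0.34 without bta1-1 replicate 1, -0.38 without wild type replicate 2 and 1.18 without wild type replicate 1. The 2.95-fold gap between the wild type libraries in CPM was wider than in 95.1% of 2694 genes of similar wild type level, and the 1.87-fold gap within bta1-1 was wider than in 81.3% of 2641.

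PIN5b (OS08G0529000, chromosome 8), whose protein in rice was placed at the endoplasmic reticulum, had the largest estimate among the tested carriers. It had 12 and 19 reads in bta1-1, against 4 and 3 in wild type, or 0.426 and 0.674 FPKM in bta1-1 and 0.121 and 0.122 FPKM in wild type. Both bta1-1 libraries stood above both wild type libraries, which were alike. PIN5b was the 1 tested carrier whose CPM values did not overlap. It had enough reads to be tested only through its bta1-1 libraries. This order and its p-value are therefore not independent of its high level there. With no filter on low counts its adjusted p was 0.101 by edgeR. Of all genes tested, 23.8% had both bta1-1 CPM values above both wild type values. The log2 fold change was 2.09 (SE 0.63, 95% interval 0.65 to 3.53, unadjusted p = 0.00978, adjusted p = 0.106 by edgeR), a 4.25-fold higher level in bta1-1 that was not called over all genes. Leaving out 1 library could not turn its sign, because both bta1-1 CPM values lay above both wild type values. The estimates ran from 1.84 without bta1-1 replicate 2 to 2.32 without bta1-1 replicate 1. The markers of dividing cells were likewise higher in both bta1-1 libraries and highest in bta1-1 library 2. In wild type libraries 1 and 2 their summed FPKM was 21.7 and 9.72, whereas PIN5b had 0.121 and 0.122 FPKM. Their part in the PIN5b values was not tested. At 4 and 3 reads in wild type the size of this difference is imprecise, and on log2(FPKM + 1), a scale that understates changes of low genes, it was 0.46 (adjusted p = 0.181 by limma).

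**Figure D3:**
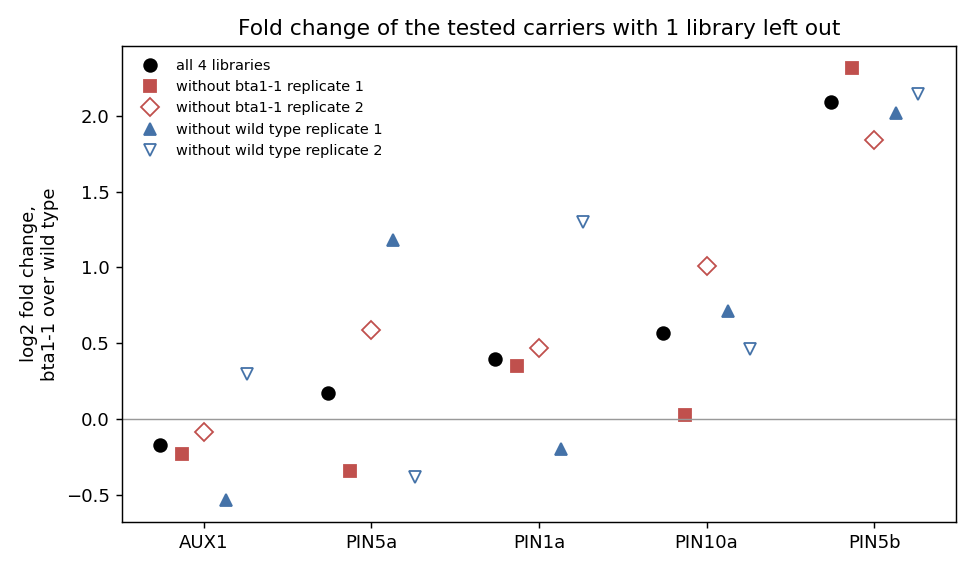
Log2 fold change, bta1-1 over wild type, of the 5 tested carriers with all 4 libraries (black) and with 1 library left out (red without a bta1-1 library, blue without a wild type library). The PIN5b values lie between 1.84 and 2.32, and as its groups do not overlap their sign could not turn. Those of AUX1, PIN5a and PIN1a fall on both sides of 0, and PIN10a falls to 0.026.

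By mean FPKM over the 4 libraries the order of levels was AUX1 at 8.50, PIN5a at 1.79, PIN1a at 0.893, PIN10a at 0.458, PIN5b at 0.336, PIN1d at 0.0902, PIN1c at 0.0517, PIN10b at 0.0301, PIN1b at 0.0114 and PIN2 at 0. AUX1 alone stood apart from its neighbour, since its lowest library (6.69 FPKM) was above the highest of PIN5a (2.53 FPKM). The ranges of all other neighbours in the order overlapped, although PIN1a lay above PIN10a within each of the 4 libraries, as PIN5b did above PIN1d. PIN5a was above PIN1a in 3 of 4 libraries, the exception being wild type library 2, and PIN10a was above PIN5b in 3 of 4, the exception being bta1-1 library 2. Across all genes with a read, 22.5% had both bta1-1 FPKM values above both wild type values, beside PIN5b, PIN1c and PIN1d among the 9 carriers with a read.

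Across the 4 libraries, AUX1 was high in wild type library 2, low in wild type library 1 and intermediate in both bta1-1 libraries. The tested genes with the most similar profile were OS06G0303700, OS07G0671800 and OS03G0780600, at Euclidean distances of 0.0502, 0.0511 and 0.0532 in log2 CPM centred on each gene's mean. The first had 36.4 and 32.9 CPM in bta1-1 and 28.4 and 52.1 CPM in wild type, against 15.6 and 14.4 CPM in bta1-1 and 12.2 and 21.7 CPM in wild type for AUX1. AUX1 was not alone with this profile across the 4 libraries: 287 of 23248 genes, or 1.23%, lay within a distance of 0.25.

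Neighbouring loci show whether a carrier lies among many genes called between the lines. These are differences in reads, and differences in sequence were not tested. Of the 20 loci on each side of the 10 carriers, 237 were tested, and 3 were higher and 4 lower in bta1-1, together 2.95%, against 5.36% of all genes tested. All 7 calls lay around 4 carriers: PIN2 had 1 higher and 1 lower call among 23 tested neighbours, AUX1 had 2 lower among 27, PIN1b had 2 higher among 27 and PIN10a had 1 lower among 23. The other 6 carriers had 0 called neighbours by edgeR. These were PIN5b among 17 tested, PIN1d among 20, PIN1c among 22, PIN1a among 23, PIN10b among 26 and PIN5a among 29. With 5.36% of all genes called, 0 calls among so few neighbours says little about any single carrier.

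A list of 10 further loci published for auxin transport held other PIN and AUX1 relatives, an ABCB-type transporter and regulators of PIN proteins. Of its 5 tested members 2 were called, both higher in bta1-1, against 2.75% of all genes called higher. The list was chosen with earlier results of these data known, so this share is no independent support for a difference. The median log2 fold change of the 5 tested members was 1.85, against -0.01 for all genes tested. Among these, OS10G0147400 had enough reads to be tested only through its bta1-1 libraries, which bears on the median. PID (OS12G0614600), the rice relative of the Arabidopsis kinase PINOID, which phosphorylates PINs and so helps set the side of the cell they occupy, rose in bta1-1. It had 165 and 221 reads in bta1-1, against 59 and 46 in wild type, or 5.41 and 7.23 FPKM in bta1-1 and 1.65 and 1.73 FPKM in wild type. Both bta1-1 libraries were far above both wild type libraries, and the log2 fold change was 1.85 (SE 0.32, 95% interval 1.11 to 2.59, adjusted p = 0.0163 by edgeR). Without wild type replicate 1 its adjusted p was 0.0670, with a log2 fold change of 1.75. The 5 markers of dividing cells were also called higher in bta1-1 and highest in bta1-1 library 2, as PID was. In wild type libraries 1 and 2 their summed FPKM was 21.7 and 9.72, whereas PID had 1.65 and 1.73 FPKM. Their part in the values of PID and of the list was not tested.

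The other called locus, OS04G0459000, had 295 and 975 reads in bta1-1, against 127 and 84 in wild type, or 4.07 and 13.4 FPKM in bta1-1 and 1.49 and 1.33 FPKM in wild type. The bta1-1 libraries were both higher, and they differed 2.98-fold from each other in CPM. The log2 fold change was 2.55 (SE 0.47, 95% interval 1.47 to 3.62, adjusted p = 0.0202 by edgeR), and 1.59 without bta1-1 replicate 2, where it was called as well (adjusted p = 0.00933). When limma was run on log2(FPKM + 1) of every gene above 0 in some library, it was not called (adjusted p = 0.0999). The markers of dividing cells had the same order of libraries within bta1-1, and their part in this result was not tested.

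OS10G0147400 had 14 and 23 reads in bta1-1, against 1 and 4 in wild type, with a log2 fold change of 2.76 (95% interval 0.99 to 4.54) and adjusted p = 0.0852 by edgeR, so it was not called. With no filter on low counts its adjusted p was 0.0279, which made 3 calls in the list. OS05G0447200 had 20 and 20 reads in bta1-1 and 13 and 13 in wild type (log2 fold change 0.58, adjusted p = 0.652), and OS03G0666100 had 416 and 767 in bta1-1 and 562 and 315 in wild type (log2 fold change 0.43, adjusted p = 0.519). The 5 untested loci of the list had between 0 and 8 reads in any library, among them PIN9 (OS01G0802700) with 1 and 0 reads in bta1-1 and 0 and 0 in wild type. Whether the carriers and these further loci differ in their response was not tested.

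**Figure D4:**
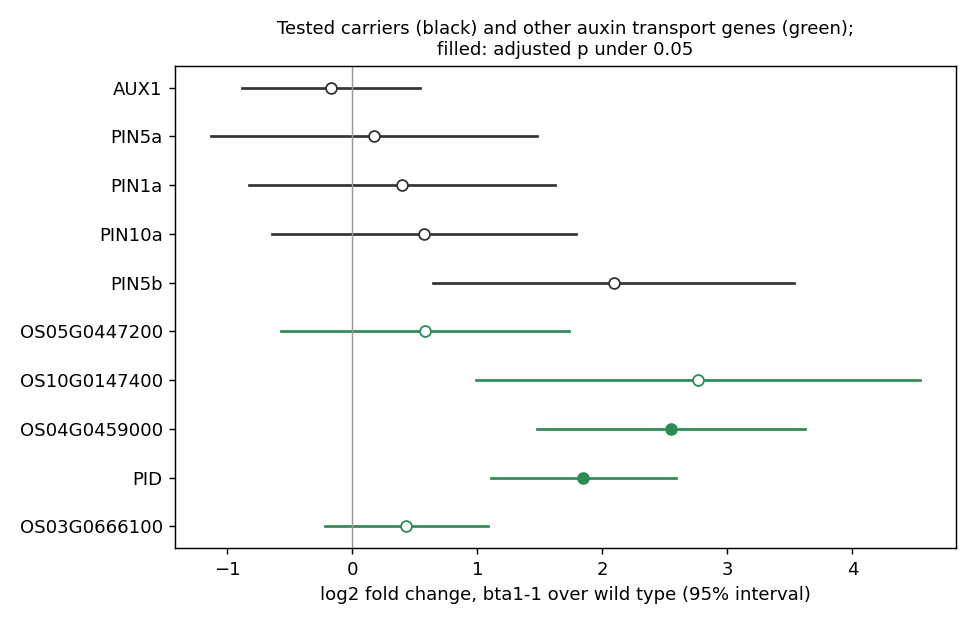
Log2 fold change, bta1-1 over wild type, with 95% intervals from edgeR for the 5 tested carriers (black) and the 5 tested loci of the further auxin transport list (green); filled points have an adjusted p under 0.05. The intervals of AUX1, PIN5a, PIN1a and PIN10a include 0, and PID (1.85) and OS04G0459000 (2.55) are the filled points.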

How the data were processed

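Raw read counts per gene and FPKM values (scaled for gene length and counted reads) were deposited by the authors for the 4 libraries. Counts divided by FPKM gave a whole gene length, within 0.01 base, in 100% of values. The submitters' processing notes list HTSeq 0.6.1, TopHat2 2.0.12, Bowtie2 2.2.3 and build IRGSP-1.0 without their roles. Neither the annotation release nor the strand setting is given in the sources used here. Overlapping and antisense genes may therefore share reads.

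The 37830 rows with a rice locus identifier (99.28% to 99.39% of reads) entered edgeR 4.0.16 under R 4.3.3 (TMM factors, filterByExpr with a minimum count of 10 and total of 15, robust quasi-likelihood, group as the 1 term, two-sided). P-values were adjusted by Benjamini-Hochberg over the 23249 genes kept, and a gene was called at an adjusted p under 0.05. Standard errors are the log2 fold change over the square root of F. The tests were checked on simulated data. P-values set the difference between the groups against the spread between replicate libraries, moderated across genes. Alternatives were other size factors, no filter, DESeq2 1.42.0, all rows, limma 3.58.1 on log2(FPKM + 1) and log2(FPKM + 0.1), each library left out, and the replicate number as a block. Replicate libraries were distinct (chi-square per degree of freedom 49.4 in bta1-1 and 35.7 in wild type).

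The members and lists were chosen with earlier results of these data known. The rule named all 10 carriers, LAZY1, and list members that were called or stood beside a carrier in level. The remaining tested list loci, PIN9 and the single marker genes were added after their values were seen, and the pair sum of PIN1c and PIN1d was formed after their values were seen. The 3 nearest profiles were taken for the most abundant carrier. Names follow published locus identifiers and were matched to the RefSeq gene table (assembly ASM3414082v1) by name, chromosome and rank on the chromosome within 5%. Of the 10 carriers 7 matched, all but PIN1d, PIN10b and AUX1. That table also gives the names PIN1a to PIN1c, and PIN5b and PIN5c, to more than 1 locus each or to a different locus, so the locus identifier decides here which gene is meant. Of the 10 further loci 2 matched, so the other 8 are given by identifier.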

Additional observations from a re-analysis of the deposited data

How the results depend on the processing

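With 2 libraries per group and few reads for most carriers, what could be seen was limited. Of 13 alternatives 12 also called 0 carriers. Leaving out 1 library moved the median of the tested carriers between 0.026 and 0.71 (log2), PIN1a between -0.20 and 1.30, PIN5a between -0.38 and 1.18 and AUX1 between -0.53 and 0.30, and the cause was not tested. Of the carriers, 4 were detected without each library and 1 (AUX1) at an FPKM of at least 1 in each library. With the replicate number as a block PIN5b had a log2 fold change of 2.05 (adjusted p = 0.269 by edgeR), and 0 carriers were called. Equal numbers are not stated to mark a batch. The replicate differences correlated at -0.413 between the groups, and a crossed replicate block, chosen after seeing the data, called 1 carrier (PIN5b, 2.11). Over all genes 1245 were called, against 694 with the block, 3672 with the crossed block, 2291 with no filter, 687 by limma on log2(FPKM + 1) for all genes above 0, and 773 to 2022 without 1 library.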
